A study of Mus musculus with 6 samples.

Results

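Interferon-stimulated genes were followed in the murine tissues entangled with BEC, the cartilage engineered from rabbit BMSCs, after subcutaneous implantation in BALB/c nude mice. The 40 genes were chosen by name as well-known targets of type I or type II interferon, and all 40 are among the 48440 genes of the deposited count table. BEC had been wrapped in electrospun membranes of PCL and collagen that held either no drug (0%-Axitinib, 3 samples) or axitinib, an inhibitor of the VEGF receptor tyrosine kinases, at 3% of the weight of PCL and collagen (3%-Axitinib, 3 samples). All samples were taken after 12 weeks. The hosts were male, and the labels give no age, although the study's methods state the age at purchase. Nude mice lack a thymus and mature few T cells, but keep NK cells, B cells and myeloid cells. The labels describe the first group as untreated, and it was taken as the 0%-Axitinib group because the series and its deposited protocol name membranes with 0% or 3% of the drug and no others. Each mouse carried a pair of constructs of the same kind, so samples of a group may share a mouse. Which did is not given, so n counts samples and not mice, and p-values measure the spread between samples. The depth ranged from 9225518 to 18403795 reads on genes. A count of 3, used as the limit of detection, corresponded to between 0.163 and 0.325 CPM (counts made comparable between libraries of unlike size) and covers counting error only. Reads that did not map to the mouse genome made up 5.47, 3.84 and 14.9% of the reads in 0%-Axitinib replicates 1, 2 and 3 and 48.4, 29.2 and 16.8% in 3%-Axitinib replicates 1, 2 and 3. This share was higher in the 3%-Axitinib group in every sample, and its part in the results was not tested.

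Interferons are secreted proteins that induce a programme of defence genes in the cells they reach. Type I interferons act through a complex with STAT2 and IRF9 that binds the interferon-stimulated response element (ISRE) and switches on antiviral effectors such as the Ifit, Oas and Mx genes. Interferon gamma, made mainly by NK cells and T cells, acts at the gamma-activated site (GAS) and through IRF1, and its typical targets are the guanylate-binding proteins (Gbp) and the immunity-related GTPases such as Irgm1 and Igtp, although many genes respond to both.

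As a set, the interferon-stimulated genes were lower in the 3%-Axitinib group, and the genes induced by interferon gamma were lower by more than those induced by type I interferon. Of the 40 genes, 38 had enough reads to be tested, and 37 of these had a log2 fold change below 0. The exceptions to testing were Gbp6, which had no read in any sample, and Oas1a, which was counted in 2 samples. The study's criterion (a fold change of at least 1.5 with an unadjusted p of at most 0.05, here from edgeR's quasi-likelihood test) was met by 22 of the 38 tested genes as lower, or 57.9%, where 11.7% of all 15257 tested genes were lower by it. Among the 22, Gbp8 passed the filter on low counts only through the 0%-Axitinib samples, so its calls are a description only. With at least 10 counts in every sample, which leaves out Gbp8, 21 of 37 were lower, where 1570 of all 13035 tested genes were. With edgeR, 0 of the 38 were higher by the criterion, where 9.54% of all tested genes were. No gene with an unadjusted p of at most 0.05 was higher either, and DESeq2 and limma-voom also gave 0. In 23 of the 38, or 60.5%, the highest 3%-Axitinib value was under the lowest 0%-Axitinib value, which held for 16.6% of all tested genes, and the reverse held for none, against 14.7%. The median log2 fold change was -0.74 over the 38 genes and -0.034 over all tested genes. Bulk tissue was sequenced, so fewer cells of a type and less RNA per cell cannot be told apart.

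With edgeR and all 6 samples, 0 of the 38 had an adjusted p of at most 0.05 (0.00655% of all tested genes, a single gene outside the set), the smallest being 0.0965, while 23 had an unadjusted p of at most 0.05. With DESeq2's Wald test, 16 were lower at an adjusted p of at most 0.05, against 6.91% of all tested genes, and 0 were higher, against 5.94%, and limma-voom gave 0. The library of 0%-Axitinib replicate 3 stood apart, with the highest value of its group for many of these genes, and without it the median log2 fold change was -0.57 over 39 tested genes, where that over all tested genes was 0.021. Then 16 of the 39, Gbp8 among them, were lower by the criterion (41%, against 13.7% of all tested genes) and 1, Oas1a, was higher (against 14.5%). Oas1a had no read in the 0%-Axitinib group and entered this fit only through 3%-Axitinib samples, so its call is a description only. Without 0%-Axitinib replicate 3, the groups did not overlap for 23 of the 39 as lower (59%, against 27.1% of all tested genes) and for 1, Socs1, as higher (against 26.6%). The 7 genes Gbp4, Gbp8, Gbp9, Iigp1, Ifi44, Irf1 and Oas2 were then lower at an adjusted p of at most 0.05, against 3.89% of all tested genes, and 0 were higher, against 4.09%. The call of Gbp8 is again a description only. Ifit1, Ifit3, Isg15, Irf7, Xaf1, Socs1 and Bst2, none of which met the criterion with all 6 samples, turned to log2 fold changes at or above 0 without that library. Of the 22 lower genes, 14, Gbp8 among them, met the criterion whichever sample was removed (share of all tested genes not given). The other 8 (Eif2ak2, Gbp3, Gbp7, Irf1, Irf9, Oas3, Rtp4 and Trim21) missed it without at least 1 of the samples, and Irf1 did so when any 1 of the 3%-Axitinib samples was removed, through its p alone, its log2 fold change then being -1.39, -1.40 or -1.44.

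**Figure D1:**
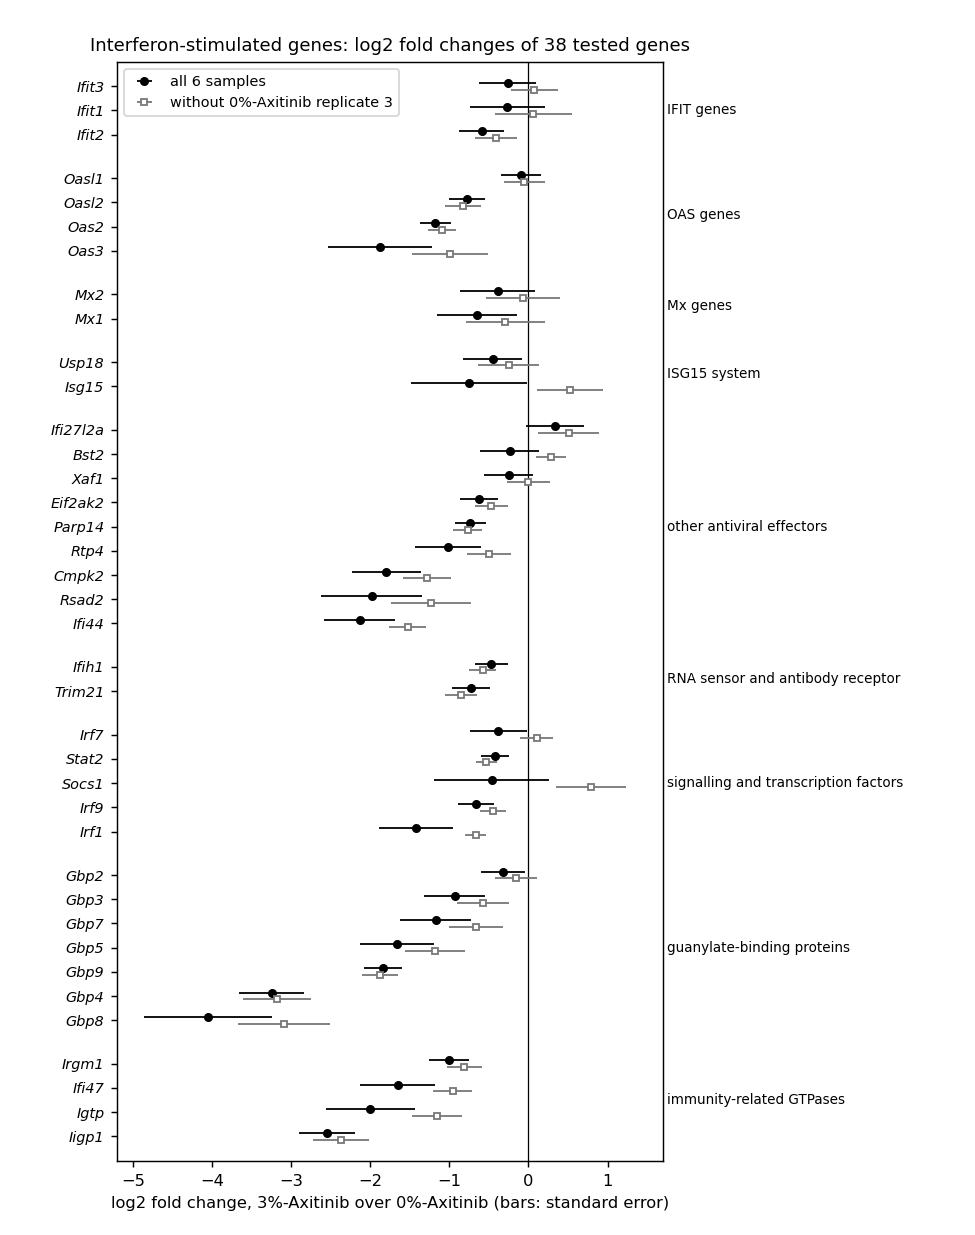
The horizontal axis gives the log2 fold change of 3%-Axitinib over 0%-Axitinib for the 38 tested genes, grouped by role, with bars for the standard error, filled circles for all 6 samples and open squares for the fit without 0%-Axitinib replicate 3. Guanylate-binding proteins and immunity-related GTPases reach the lowest values, down to -4.05 for Gbp8, and Ifi27l2a alone lies above 0 with all 6 samples.

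The IFIT genes encode proteins that bind viral RNA and hinder its translation, and none of the 3 met the criterion. Ifit3, the most abundant of them per length, stood at 19.5, 12.2 and 28.5 CPM in replicates 1, 2 and 3 of the 0%-Axitinib group and 19.1, 12.4 and 18.6 CPM in those of the 3%-Axitinib group. The groups overlapped widely, and the lowest values of both groups, in replicate 2 of each, were nearly equal. Its log2 fold change of -0.26 (adjusted p = 0.677, with a standard error of 0.36) became 0.073 without 0%-Axitinib replicate 3. Ifit2 had the smallest p of the IFIT genes, with 21.9, 18.4 and 28.4 CPM in replicates 1, 2 and 3 of the 0%-Axitinib group and 19.3, 11.4 and 15 CPM in those of the 3%-Axitinib group. Its groups also overlapped, since 3%-Axitinib replicate 1 lay above 0%-Axitinib replicate 2, and the log2 fold change of -0.59 (adjusted p = 0.257, with a standard error of 0.28) did not meet the criterion. Ifit1 had a log2 fold change of -0.27. The Mx genes, dynamin-like GTPases of which Mx1 is defective in most laboratory strains, had low levels per length (1.84 ± 0.740 and 1.17 ± 0.563 CPM per kilobase of exon for Mx1, SD, n = 3 each). Mx1 stood at 6.30, 4.54 and 10.02 CPM in replicates 1, 2 and 3 of the 0%-Axitinib group and 5.26, 2.00 and 6.00 CPM in those of the 3%-Axitinib group, with groups that overlapped and a log2 fold change of -0.65 (adjusted p = 0.462, with a standard error of 0.51), and Mx2 had a log2 fold change of -0.39.

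The OAS genes encode enzymes and related proteins that sense double-stranded RNA, of which the active synthetases make the messenger that switches on RNase L. Of the 4 tested, 3 were lower by the criterion (against 11.7% of all tested genes). Oas2 (chromosome 5, 120730333 to 120749853 of GRCm38) had the smallest p, with 50.4, 39.8 and 53.3 CPM in replicates 1, 2 and 3 of the 0%-Axitinib group and 23.6, 19.3 and 20.7 CPM in those of the 3%-Axitinib group. The samples within a group lay close together, and no 3%-Axitinib sample came near the lowest 0%-Axitinib sample. Its log2 fold change of -1.18 (adjusted p = 0.0965, with a standard error of 0.20) was -1.10 (adjusted p = 0.0379, with a standard error of 0.18) without 0%-Axitinib replicate 3. Oas2 overlaps Gm43068 on the other strand, and reads of the 2 were not separable here if counting ignored strand. Oas3 had the lowest log2 fold change of these genes, with 15.7, 16.5 and 56.5 CPM in replicates 1, 2 and 3 of the 0%-Axitinib group and 10.4, 3.27 and 10.4 CPM in those of the 3%-Axitinib group. A single library, 0%-Axitinib replicate 3, was well above the others of its group. Here the log2 fold change of -1.87 (adjusted p = 0.159, with a standard error of 0.66) was -1.0 without this library and then missed the criterion, although the groups still did not overlap. Oasl2 was lower by the criterion, with a log2 fold change of -0.77. Oasl1 had 10.9 ± 0.824 CPM per kilobase of exon in the 0%-Axitinib and 10.1 ± 2.98 in the 3%-Axitinib group, and Oasl2 had 11.7 ± 1.52 and 6.87 ± 1.69 (SD, n = 3 each), so that Oasl1 was the more abundant per length only over all 6 samples and in the 3%-Axitinib group. Oasl1 stood at 28.9, 25.9 and 30.1 CPM in replicates 1, 2 and 3 of the 0%-Axitinib group and 24.1, 20.1 and 35.1 CPM in those of the 3%-Axitinib group. Its highest value was in a 3%-Axitinib sample, the groups overlapped, and the log2 fold change of -0.10 (adjusted p = 0.837, with a standard error of 0.25) was close to 0.

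Oas1a, a synthetase gene of the same family (chromosome 5, 120896256 to 120907521), was present or absent by sample. It had counts of 0, 0 and 0 in 0%-Axitinib replicates 1, 2 and 3 and of 151, 0 and 291 in 3%-Axitinib replicates 1, 2 and 3, which is 16.6, 0 and 16.8 CPM in the latter. It was thus clearly detected in 2 samples of the 3%-Axitinib group and not in any other, and the groups overlapped at 0. The closely related Oas1g was present in the same samples, at 0, 0 and 0 CPM in the 0%-Axitinib and 4.39, 0 and 7.10 CPM in the 3%-Axitinib samples, while Oas1b, in the same cluster, was detected in all 6 samples at 2.71, 2.21 and 9.53 and 4.72, 3.63 and 5.95 CPM. Reads shared by such copies are counted for none of them when they map to several places. The same 3%-Axitinib replicates 1 and 3 held the transcripts of skeletal muscle. The 10 genes of that list summed to 130.4, 6.34 and 11.5 CPM in 0%-Axitinib replicates 1, 2 and 3 and to 13183, 18.3 and 7356 CPM in 3%-Axitinib replicates 1, 2 and 3. Acta1 was its most abundant gene, Ckm and Myh4 were at 0 in 0%-Axitinib replicate 3 and 3%-Axitinib replicate 2, and 8 of its 10 genes were higher by the criterion with edgeR, but 0 with limma-voom. Of the 10, 6 had fewer than 10 counts in at least 1 sample, and such genes can pass the filter through the samples where they are high. The number called is thus a description only. With at least 10 counts in every sample, 4 muscle genes were tested, and all 4 were higher with edgeR. The part of this tissue in the counts of Oas1a was not tested.

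Isg15 encodes a ubiquitin-like protein that is joined to other proteins, and Usp18 the protease that removes it and dampens the type I receptor. Isg15 stood at 13, 7.09 and 53.1 CPM in replicates 1, 2 and 3 of the 0%-Axitinib group and 19.4, 15.4 and 8.83 CPM in those of the 3%-Axitinib group. The value of 0%-Axitinib replicate 3 was far above the others, and the remaining 0%-Axitinib samples lay within or below the range of the 3%-Axitinib samples. Its log2 fold change of -0.75 (adjusted p = 0.553, with a standard error of 0.73) turned to 0.52 without that library. For Usp18, 19.3, 9.83 and 21.2 CPM in replicates 1, 2 and 3 of the 0%-Axitinib group and 10.9, 9.18 and 16.6 CPM in those of the 3%-Axitinib group were measured, with groups that overlapped and a log2 fold change of -0.45 (adjusted p = 0.486, with a standard error of 0.38).

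Among 9 other antiviral effectors, 6 were lower by the criterion (Ifi44, Rsad2, Cmpk2, Rtp4, Parp14 and Eif2ak2), against 11.7% of all tested genes. Ifi44, an interferon-induced gene of the cytoplasm, had both the smallest p and the lowest log2 fold change, with 20.8, 17.5 and 49.7 CPM in replicates 1, 2 and 3 of the 0%-Axitinib group and 8.01, 5.81 and 6.23 CPM in those of the 3%-Axitinib group. All 3%-Axitinib samples lay together, below the lowest 0%-Axitinib sample. The log2 fold change of -2.13 (adjusted p = 0.0965, with a standard error of 0.44) stayed between -2.40 and -1.53 when any 1 sample was removed, and was -1.53 (adjusted p = 0.0379, with a standard error of 0.24) without 0%-Axitinib replicate 3. Rsad2 (viperin, a radical SAM enzyme that makes a chain-terminating nucleotide) and its neighbour Cmpk2, a mitochondrial nucleotide kinase that supplies the substrate, lie side by side on chromosome 12 and had log2 fold changes of -1.98 and -1.80, or -1.24 and -1.29 without 0%-Axitinib replicate 3. Parp14, an ADP-ribosyltransferase, had a log2 fold change of -0.73, and Eif2ak2, the kinase PKR that halts translation on double-stranded RNA, of -0.63. Rtp4 had a log2 fold change of -1.02 and overlaps Masp1 on the other strand. Without 0%-Axitinib replicate 3, Rtp4 and Eif2ak2 missed the criterion, with log2 fold changes of -0.50 and -0.47.

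The 2 effectors with the highest levels per length, Ifi27l2a and Bst2, were not among the lower genes. Ifi27l2a, a small interferon-induced membrane protein gene, had the highest level per length of all 40 genes, 288 ± 117 CPM per kilobase in the 0%-Axitinib and 363 ± 75.1 in the 3%-Axitinib group (SD, n = 3 each). It stood at 165, 70.5 and 164 CPM in replicates 1, 2 and 3 of the 0%-Axitinib group and 137, 206 and 161 CPM in those of the 3%-Axitinib group. The groups overlapped, the lowest value being that of 0%-Axitinib replicate 2 and the highest that of 3%-Axitinib replicate 2, and its log2 fold change of 0.33 (adjusted p = 0.595, with a standard error of 0.36) was the only one above 0. Bst2 (tetherin, which holds budding virions at the cell surface) came next at 144 ± 78 and 122 ± 12.3 CPM per kilobase (SD, n = 3 each), and its log2 fold change was -0.24, or 0.29 without 0%-Axitinib replicate 3. Xaf1, which binds the apoptosis inhibitor XIAP and was less abundant per length, had a log2 fold change of -0.25 and did not meet the criterion either.

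Trim21, a cytosolic receptor for antibodies and a ubiquitin ligase, stood at 21.2, 18.8 and 15.1 CPM in replicates 1, 2 and 3 of the 0%-Axitinib group and 11.1, 9.63 and 12.5 CPM in those of the 3%-Axitinib group. The groups did not overlap, and the 0%-Axitinib sample with the lowest value was replicate 3. The log2 fold change of -0.73 (adjusted p = 0.148, with a standard error of 0.24) met the criterion and was -0.85 without that library. Ifih1, which encodes the RNA sensor MDA5, separated the groups as well, but its log2 fold change of -0.47 missed the criterion.

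Of the 5 signalling and transcription factor genes, 2, Irf1 and Irf9, were lower by the criterion (against 11.7% of all tested genes). Irf1 (chromosome 11, 53770014 to 53778374), the factor that carries much of the response to interferon gamma, stood at 55.1, 51 and 164 CPM in replicates 1, 2 and 3 of the 0%-Axitinib group and 32.7, 33 and 35 CPM in those of the 3%-Axitinib group. The 3%-Axitinib samples were nearly alike, and all 0%-Axitinib samples lay above them, replicate 3 by far the most. With all samples, it had a log2 fold change of -1.42 (adjusted p = 0.142, with a standard error of 0.46), against -0.66 (adjusted p = 0.0437, with a standard error of 0.13) without 0%-Axitinib replicate 3, a smaller difference with a smaller standard error. Irf9 and Stat2, parts of the type I complex, had log2 fold changes of -0.66 and -0.43, and their groups did not overlap. The latter is a fold change below 1.5. Irf7, the factor that amplifies type I interferon production, was the most abundant per length over all 6 samples and in the 3%-Axitinib group, but Irf1 was level with it in the 0%-Axitinib group (22.3 ± 11.6 for Irf7 and 22.6 ± 16.1 CPM per kilobase for Irf1, SD, n = 3 each). It was measured at 72.9, 47.2 and 132 CPM in replicates 1, 2 and 3 of the 0%-Axitinib group and 63.8, 64.2 and 66 CPM in those of the 3%-Axitinib group. The 3%-Axitinib samples again lay close together, but within the range of the 0%-Axitinib samples, and the log2 fold change of -0.38 (adjusted p = 0.543, with a standard error of 0.36) was 0.10 without 0%-Axitinib replicate 3. For Socs1, the feedback inhibitor of JAK kinases, it was -0.47, and its highest value, 20.04 CPM, was again that of 0%-Axitinib replicate 3.

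The guanylate-binding proteins are large GTPases that coat and break open the compartments of intracellular pathogens. Of the 7 tested, 6 were lower by the criterion and 5 separated the groups, with a median log2 fold change of -1.66. Of all tested genes, 11.7% were lower by the criterion and 16.6% separated the groups as lower. With at least 10 counts in every sample, which leaves out Gbp8, 5 of 6 were lower, with a median of -1.43. Without 0%-Axitinib replicate 3, 4 of the 7 were lower (against 13.7% of all tested genes), with a median of -1.18. Gbp4 (chromosome 5, 105115767 to 105139586) had the smallest p of all 40 genes, with 88.6, 31.8 and 69.4 CPM in replicates 1, 2 and 3 of the 0%-Axitinib group and 5.70, 7.81 and 6.47 CPM in those of the 3%-Axitinib group. Every 3%-Axitinib sample lay far below the lowest 0%-Axitinib sample, which was replicate 2 here. The log2 fold change of -3.25 (adjusted p = 0.0965, with a standard error of 0.41) stayed between -3.57 and -2.93 when any 1 sample was removed, and was -3.18 (adjusted p = 0.0379, with a standard error of 0.43) without 0%-Axitinib replicate 3. Gbp8 had the lowest log2 fold change of all, with counts of 38, 80 and 236 in 0%-Axitinib replicates 1, 2 and 3 and of 5, 3 and 6 in 3%-Axitinib replicates 1, 2 and 3, or 1.98, 4.65 and 12.8 and 0.548, 0.273 and 0.346 CPM. It was near the limit of detection in the 3%-Axitinib group and spread widely in the other, and it passed the filter on low counts only through the 0%-Axitinib samples. Its log2 fold change of -4.05 (adjusted p = 0.0965, with a standard error of 0.81) was -3.09 (adjusted p = 0.0419, with a standard error of 0.58) without 0%-Axitinib replicate 3. Gbp9 depended little on single samples, with a log2 fold change of -1.84 that stayed between -1.94 and -1.69 when any 1 sample was removed. Gbp4, Gbp8 and Gbp9 overlap each other on the same strand of chromosome 5, and reads on overlapping genes were counted for none of them.

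The Gbp genes of chromosome 3 were lower by less than Gbp4, Gbp8 and Gbp9, and Gbp2 and Gbp3 did not separate the groups. Gbp5 and Gbp7 had log2 fold changes of -1.66 and -1.17, and without 0%-Axitinib replicate 3 these were -1.18 and -0.67. Gbp3 met the criterion at -0.93, but its groups overlapped. Gbp2, the most abundant per length (19.4 ± 4.17 and 15.5 ± 4.69 CPM per kilobase, SD, n = 3 each), stood at 48.4, 38.6 and 59.5 CPM in replicates 1, 2 and 3 of the 0%-Axitinib group and 52.6, 30.9 and 33.8 CPM in those of the 3%-Axitinib group. A 3%-Axitinib sample, replicate 1, exceeded 2 of the 0%-Axitinib samples, and the log2 fold change of -0.32 (adjusted p = 0.496, with a standard error of 0.27) did not meet the criterion. Gbp6, also on chromosome 5, had a count of 0 in all 6 samples, and the annotation has Gm43302 overlapping it on the same strand.

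All 4 immunity-related GTPases, which dismantle the vacuoles of parasites and bacteria, were lower by the criterion and separated the groups. Of all tested genes, 11.7% were lower by the criterion and 16.6% separated the groups as lower. Iigp1 had the smallest p and the lowest log2 fold change, with 68.1, 34 and 71.2 CPM in replicates 1, 2 and 3 of the 0%-Axitinib group and 12.2, 7.27 and 10.3 CPM in those of the 3%-Axitinib group. The 3%-Axitinib values were all far below the lowest 0%-Axitinib value. Its log2 fold change of -2.54 (adjusted p = 0.0965, with a standard error of 0.36) stayed between -2.82 and -2.36 when any 1 sample was removed, and was -2.37 (adjusted p = 0.0379, with a standard error of 0.35) without 0%-Axitinib replicate 3. Igtp (chromosome 11, 58199556 to 58207591), the most abundant per length at 30.6 ± 24.3 and 7.66 ± 1.23 CPM per kilobase (SD, n = 3 each), stood at 45.7, 23 and 117 CPM in replicates 1, 2 and 3 of the 0%-Axitinib group and 16.9, 12.6 and 17 CPM in those of the 3%-Axitinib group. The 0%-Axitinib samples ranged widely, and replicate 2 was only somewhat above the 3%-Axitinib samples. Here the log2 fold change of -2.0 (adjusted p = 0.120, with a standard error of 0.57) was -1.15 without 0%-Axitinib replicate 3. Igtp overlaps Irgm2, another GTPase of the family, on the same strand. Ifi47 and Irgm1, the regulatory member that restrains the others, had log2 fold changes of -1.65 and -1.0, or -0.96 and -0.81 without 0%-Axitinib replicate 3.

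**Figure D2:**
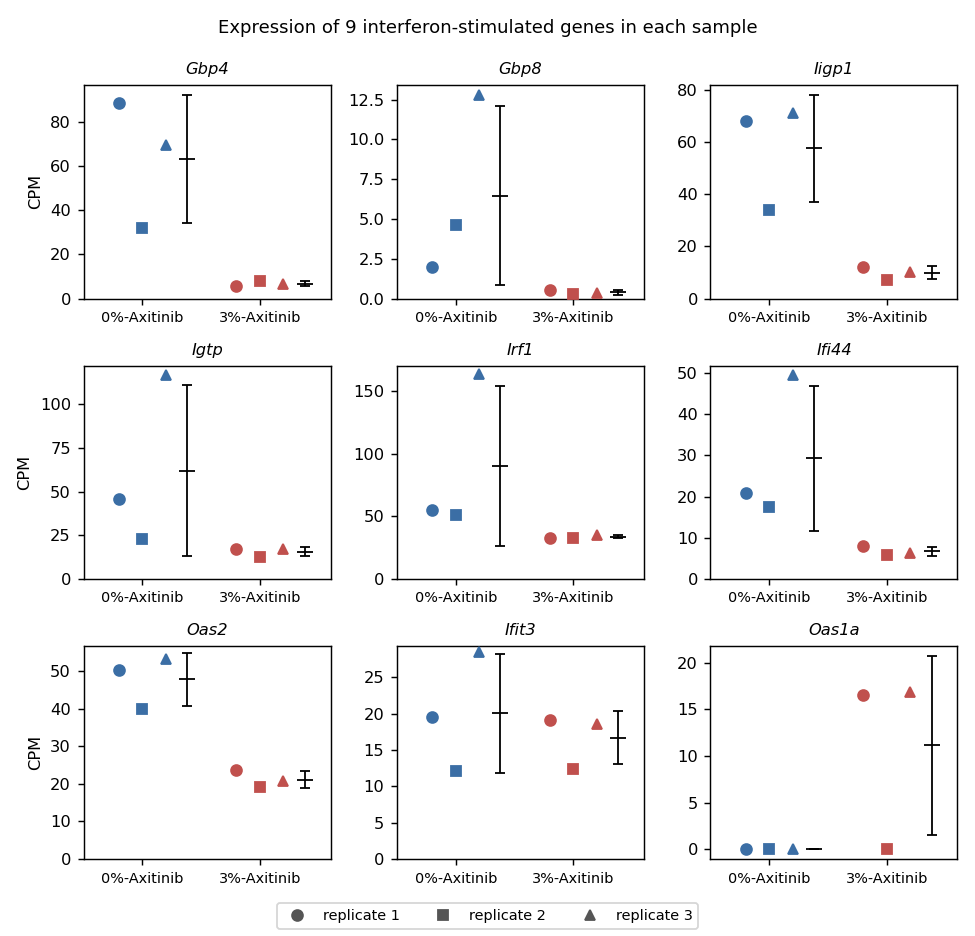
Each panel gives the CPM of a gene in each sample of the 0%-Axitinib (blue) and 3%-Axitinib (red) groups, with the marker shape for the replicate number and the black bar for the mean and SD (n = 3). Gbp4, Gbp8, Iigp1, Igtp, Irf1, Ifi44 and Oas2 separate the groups, Ifit3 overlaps, and Oas1a is at 0 in 4 samples.

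The type I induced genes (the Ifit, Oas and Mx genes, 10 in all) and the gamma induced genes (Gbp2 to Gbp9, Irgm1 and Igtp, also 10) were then set side by side. Of the 9 tested in each set, 3 type I induced and 8 gamma induced genes were lower by the criterion, and 3 and 7 separated the groups. Of all tested genes, 11.7% were lower by the criterion and 16.6% separated the groups as lower. The median log2 fold change was -0.59 for the type I induced and -1.66 for the gamma induced genes. Without 0%-Axitinib replicate 3, the same 9 genes of each set had medians of -0.29 and -1.15. In that fit, 2 of 10 tested type I induced genes were lower by the criterion and 1, Oas1a, was higher. Oas1a had no read in the 0%-Axitinib group, so its call is a description only. Of the 9 gamma induced genes, 6 were then lower and 0 were higher, where 13.7% of all tested genes were lower and 14.5% higher. Within each sample, the mean log2 CPM of the gamma induced genes minus that of the type I induced genes depends little on library size. Over all 10 genes of each set it was 0.40, 0.34 and 0.61 in 0%-Axitinib replicates 1, 2 and 3 and -1.13, -0.01 and -1.52 in 3%-Axitinib replicates 1, 2 and 3. The group means differed by -1.34, with an SD of 0.14 in the 0%-Axitinib and 0.78 in the 3%-Axitinib group (n = 3 each). Oas1a widens this difference, and over the 9 tested genes of each set, a choice made after seeing the data, it was -0.97. Gbp8 widens it too, since it passed the filter only through the samples where it is high. Over the genes with at least 10 counts in every sample, which leaves out Oas1a, Gbp6 and Gbp8, the difference between the groups was -0.76, with values of 0.91, 0.64 and 0.91 in 0%-Axitinib and 0.021, 0.54 and -0.39 in 3%-Axitinib replicates 1, 2 and 3. In this form 0%-Axitinib replicate 2 and 3%-Axitinib replicate 2 were close, although no value of one group reached those of the other, and the medians of the log2 fold changes were -0.60 for 9 type I induced and -1.43 for 8 gamma induced genes. The samples with the lowest values in each form, 3%-Axitinib replicates 1 and 3, were those that held the transcripts of skeletal muscle. The part of that tissue in this contrast was not tested. No test was made over the set, and many of these genes respond to both kinds of interferon.

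**Figure D3:**
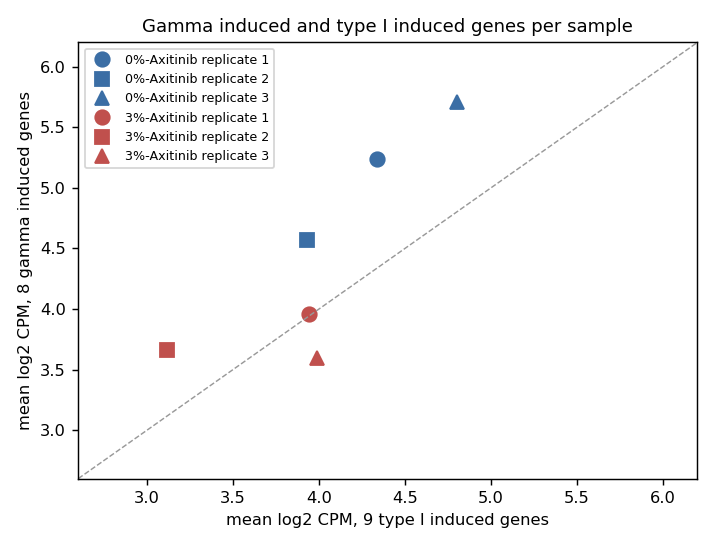
Each point is a sample, placed by the mean log2 CPM of the 9 type I induced genes (horizontal axis) and of the 8 gamma induced genes (vertical axis) with at least 10 counts in every sample, with a dashed line where both are equal. The 0%-Axitinib samples (blue) lie above the line by 0.64 to 0.91, and the 3%-Axitinib samples (red) at vertical distances between -0.39 and 0.54 from it.

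The ligands themselves were nearly undetected. Of 21 interferon genes, 17 had no read in any sample, Ifnb1 among them, and none was tested. Ifng was the most abundant, with counts of 1, 6 and 57 in 0%-Axitinib replicates 1, 2 and 3 and of 0, 2 and 0 in 3%-Axitinib replicates 1, 2 and 3. It exceeded the limit of 3 counts in 0%-Axitinib replicates 2 and 3 only, and most of its reads were in replicate 3. Among 6 receptor genes, Ifngr2, Il10rb and Ifnlr1 were lower by the criterion (against 11.7% of all tested genes). Ifngr2, the signalling chain of the interferon gamma receptor, stood at 119, 129 and 146 CPM in replicates 1, 2 and 3 of the 0%-Axitinib group and 78.3, 63.5 and 81.7 CPM in those of the 3%-Axitinib group. The groups did not overlap, and the log2 fold change of -0.82 (adjusted p = 0.0986, with a standard error of 0.19) was -0.74 without 0%-Axitinib replicate 3. The ligand-binding chain Ifngr1, the most abundant receptor gene per length, had a log2 fold change of -0.16, and the type I receptor genes Ifnar1 and Ifnar2 had -0.14 and -0.086. The difference of Ifnlr1 rested on 0%-Axitinib replicate 3, its log2 fold change being -3.93 with and -0.86 without it. Ifnlr1 had counts of 6, 6 and 4 in 3%-Axitinib replicates 1, 2 and 3, so its call is a description only. With at least 10 counts in every sample, which leaves out Ifnlr1, 2 of 5 receptor genes were lower. The kinase genes Jak1, Jak2 and Tyk2, whose products pass on the signal of the receptors, had log2 fold changes of -0.11, -0.044 and -0.35, and their groups overlapped.

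Of 16 genes that sense nucleic acids or pass on the signal, 4 were lower by the criterion (Ddx58, which encodes the RNA sensor RIG-I, Mb21d1, which encodes the DNA sensor cGAS, the kinase gene Tbk1 and Irf8) and 0 were higher, with a median log2 fold change of -0.45. Of all tested genes, 11.7% were lower and 9.54% higher. Without 0%-Axitinib replicate 3, 4 were lower, with Tlr3 in place of Irf8 (against 13.7% of all tested genes), and 1, Irf3, was higher (against 14.5%). Ddx58 had a log2 fold change of -0.85. Among 34 tested genes of a further list induced by type I interferon, 17 were lower by the criterion and 0 were higher, with a median of -0.75. Slfn9 and Trim30d had fewer than 10 counts in at least 1 sample, so any call for them is a description only. Of the other 32, 16 were lower, with a median of -0.65. Without 0%-Axitinib replicate 3, 18 of 35 were lower (against 13.7% of all tested genes) and 5 were higher (against 14.5%), the latter being Ifi35, Isg20, Oas1b, Oas1c and Oas1g, and the median was -0.66. Oas1g had no read in the 0%-Axitinib group and entered the fit without that library only through 3%-Axitinib samples, so its call is a description only. Trim30a, with a log2 fold change of -1.36, and Tnfsf10, which encodes the death ligand TRAIL, with -2.97, were lower by the criterion with and without that library, and Ly6e, the most abundant per length, met it in neither fit. Of 12 tested genes of a further list induced by interferon gamma, 11 were lower by the criterion, Gbp10 being the exception, and the median was -2.5, or -1.53 without 0%-Axitinib replicate 3. Of the 12, 5 (Gbp10, Tgtp1, Gm4951, Cxcl9 and Cxcl10) had fewer than 10 counts in at least 1 sample of the 3%-Axitinib group. A gene can pass the filter through the samples where it is high, so the calls of these 5 are a description only. Gbp10, which did not meet the criterion, was also below 10 counts in 0%-Axitinib replicates 2 and 3. The other 7 of the 12 were lower by the criterion, with a median of -1.88. The chemokine gene Cxcl9 spread widely, with 6.87, 16.9 and 97.1 CPM in replicates 1, 2 and 3 of the 0%-Axitinib group and 3.18, 0.454 and 1.04 CPM in those of the 3%-Axitinib group. The 0%-Axitinib samples lay far apart from each other, replicate 3 the highest, and all lay above the 3%-Axitinib samples. Ciita, the master regulator of class II antigen presentation, had a log2 fold change of -2.99, and -2.80 without 0%-Axitinib replicate 3.

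Markers of cells that make or answer interferon were also counted. Most genes of the lists of T and NK cells and of B and plasma cells had fewer than 10 counts in some sample, and those that passed the filter through the 0%-Axitinib samples had to differ, so their counts are given as a description only. Of 12 tested genes of T cells and NK cells, 9 were lower by the criterion (5 with limma-voom), but only Cd2, which did not meet it, had at least 10 counts in every sample. The 15 genes of the list summed to 26.1, 50.9 and 342 CPM in 0%-Axitinib replicates 1, 2 and 3 and to 18.3, 12.4 and 18.9 CPM in 3%-Axitinib replicates 1, 2 and 3. The sum in 0%-Axitinib replicate 3 was far above all others, and the median log2 fold change of the list was -3.50 with and -1.91 without it. Its most abundant gene per length over all 6 samples was Nkg7 (Cd2 in the 3%-Axitinib group), Cd8a was at 0 in all 3%-Axitinib samples, Cd3d was at 0 in 2 of them, and the NK cell receptor gene Ncr1 was at 2.5, 5.70 and 10.9 CPM in the 0%-Axitinib and 0.877, 0.818 and 0.115 CPM in the 3%-Axitinib samples. All 6 tested genes of B cells and plasma cells were lower by the criterion (3 with limma-voom), of which only Cd22 had at least 10 counts in every sample, with sums over the 8 genes of 60.0, 168 and 505 and 18.5, 16.1 and 22.2 CPM in the same order, Jchain the most abundant over all 6 samples (Cd22 in the 3%-Axitinib group), and Pax5 at 0 in 3%-Axitinib replicate 3. Of 10 general leukocyte genes, 2 were lower by the criterion (Ptprc and Lcp1, against 11.7% of all tested genes) and 4 with DESeq2, with sums of 4139.8, 6042 and 6485 and 2486, 2581 and 4294 CPM and Tyrobp the most abundant. Of 12 macrophage genes, 0 met the criterion in either direction with edgeR, DESeq2 or limma-voom, and 0 had an unadjusted p of at most 0.05, while 1 was lower by the criterion without 0%-Axitinib replicate 3. Their sums were 11948, 12395 and 8747 and 8871, 11064 and 17313 CPM in the same order, and Lyz2 was the most abundant. The median log2 fold change was 0.04 for the macrophage genes and -1.06 for the general leukocyte genes. Without 0%-Axitinib replicate 3, these medians were -0.13 and -0.53. Of 10 endothelial genes, 8 were lower by the criterion (against 11.7% of all tested genes), and 7 without 0%-Axitinib replicate 3 (against 13.7%). Their median log2 fold change was -1.30, with sums of 1082, 753 and 974 and 384, 454 and 527 CPM and Eng the most abundant. The part of these cells in the lower interferon-stimulated genes was not tested.

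Other lists served to describe the tissue. Siglech, the defining marker of plasmacytoid dendritic cells, which are strong producers of type I interferon, was at 0.989, 2.21 and 14.2 CPM in the 0%-Axitinib and 0.329, 0.545 and 1.27 CPM in the 3%-Axitinib samples. Of 6 tested genes of that list, 2 were lower and 1 was higher by the criterion, the higher gene being Cox6a2, which striated muscle also expresses and which was the most abundant over all 6 samples, while Cd209d was in the 0%-Axitinib group. Without 0%-Axitinib replicate 3, 1 was lower, Cd209d, and Cox6a2 was still the higher gene, while limma-voom gave 1 lower and 0 higher. Siglech and Pacsin1 had fewer than 10 counts in at least 1 sample, so their calls are a description only. With at least 10 counts in every sample, 4 genes of the list were tested, of which 1 was lower and 1 was higher. Of 8 fibroblast genes, 3 were higher (against 9.54% of all tested genes) and 0 were lower. Without 0%-Axitinib replicate 3 only Fbln1 was higher, which is near the 14.5% of all tested genes that then were. Of 6 adipocyte genes, 2 were lower (against 11.7% of all tested genes with edgeR) and 0 were higher with edgeR and DESeq2, while limma-voom gave all 6 as lower, and 4 of them had fewer than 10 counts in at least 1 sample. Col1a1 and Fabp4, the most abundant of these lists, were detected in all 6 samples. Sums over the lists were 26077, 13048 and 10201 and 22782, 71093 and 25332 CPM for fibroblasts, and 725, 678 and 909.7 and 403, 289 and 287 CPM for adipocytes.

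The promoters of the 40 genes were searched for the binding motifs of the factors named above. The reference, from RefSeq (GRCm38.p6), held the window from 250 bases before to 50 bases after the gene start for 28 of the 40 genes, and genes with several windows were counted as holding a motif when any window did. The ISRE core was searched as GAAANNGAA on both strands (its reverse complement is TTCNNTTTC) and GAS as TTCNNNGAA, which reads the same on both. The ISRE core was found for 19 of the 28 genes, or 67.9%, against 9.76% of all 27025 genes, and GAS for 8, or 28.6%, against 9.55%. Among the gamma induced genes, all 6 in the table held the ISRE core and 3 held GAS (Gbp5, Gbp7 and Igtp). Among the type I induced genes, 4 of 7 held the ISRE core, each in at least 2 matches that may overlap, and 2 held GAS. The windows printed below are a selection. Of the others, Eif2ak2 holds both motifs and was lower by the criterion, while Bst2 holds both and did not meet it. Rsad2, Ifi44, Oas3, Irgm1 and Trim21 hold the ISRE core alone and were lower by the criterion. Ifit2 holds GAS alone and did not meet it. Gbp4, Gbp8, Gbp9 and Iigp1 had no window. A match is a description of the letters and does not show binding.

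The windows of 3 gamma induced genes that were lower by the criterion and hold both motifs are shown first, followed by the window of Irf1 that holds GAS alone. Each is read 5′ to 3′ with the matched letters of either motif in capitals.
Gbp5, chr3:142496684-142496983, plus strand: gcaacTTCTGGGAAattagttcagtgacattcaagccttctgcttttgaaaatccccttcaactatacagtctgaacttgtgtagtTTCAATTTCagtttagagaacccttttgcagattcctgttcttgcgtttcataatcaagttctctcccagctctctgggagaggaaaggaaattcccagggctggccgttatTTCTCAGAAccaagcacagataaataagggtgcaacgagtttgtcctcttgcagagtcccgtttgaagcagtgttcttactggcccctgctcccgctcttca
Gbp7, chr3:142530086-142530385, plus strand: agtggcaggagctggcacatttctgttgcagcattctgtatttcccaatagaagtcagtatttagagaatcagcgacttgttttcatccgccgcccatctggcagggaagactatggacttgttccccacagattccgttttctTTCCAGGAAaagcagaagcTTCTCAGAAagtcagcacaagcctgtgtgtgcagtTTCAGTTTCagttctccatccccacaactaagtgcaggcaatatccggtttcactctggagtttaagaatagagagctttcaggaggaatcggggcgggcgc
Igtp, chr11:58199306-58199605, plus strand: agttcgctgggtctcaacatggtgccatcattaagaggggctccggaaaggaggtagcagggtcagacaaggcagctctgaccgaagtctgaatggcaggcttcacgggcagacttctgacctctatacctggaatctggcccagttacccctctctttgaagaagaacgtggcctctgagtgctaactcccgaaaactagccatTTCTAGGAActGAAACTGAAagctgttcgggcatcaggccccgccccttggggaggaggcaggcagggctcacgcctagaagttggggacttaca
Irf1, chr11:53769764-53770063, plus strand: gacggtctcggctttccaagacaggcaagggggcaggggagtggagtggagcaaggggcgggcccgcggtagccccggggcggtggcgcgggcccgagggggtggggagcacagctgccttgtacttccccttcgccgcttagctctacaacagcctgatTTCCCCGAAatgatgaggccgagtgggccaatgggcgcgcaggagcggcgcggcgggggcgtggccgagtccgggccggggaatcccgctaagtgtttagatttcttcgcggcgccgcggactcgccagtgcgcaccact

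In Igtp, GAS begins 45 bases and the ISRE core 34 bases before the gene start. In Gbp7, both GAS matches lie further from the start than the ISRE core, which begins 52 bases before it. The GAS of Irf1 begins 90 bases before the start.

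For comparison, the windows of Ifit3 and Isg15, whose groups overlapped, and of Oas1a, which was counted in 2 samples, are shown in the same way. They hold the ISRE core in several copies, which overlap in Isg15 and Oas1a.
Ifit3, chr19:34583279-34583578, plus strand: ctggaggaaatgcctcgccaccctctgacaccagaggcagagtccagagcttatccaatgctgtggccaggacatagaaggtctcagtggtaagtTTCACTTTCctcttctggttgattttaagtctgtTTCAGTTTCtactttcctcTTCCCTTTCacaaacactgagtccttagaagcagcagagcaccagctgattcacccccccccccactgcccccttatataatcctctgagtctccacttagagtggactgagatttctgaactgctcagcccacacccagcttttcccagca
Isg15, chr4:156200769-156201068, minus strand: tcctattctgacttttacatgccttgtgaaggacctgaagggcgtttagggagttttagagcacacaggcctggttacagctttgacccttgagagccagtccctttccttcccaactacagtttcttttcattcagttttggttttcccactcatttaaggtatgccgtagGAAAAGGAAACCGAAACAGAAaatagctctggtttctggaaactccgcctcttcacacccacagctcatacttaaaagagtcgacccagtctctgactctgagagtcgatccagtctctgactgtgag
Oas1a, chr5:120907476-120907775, minus strand: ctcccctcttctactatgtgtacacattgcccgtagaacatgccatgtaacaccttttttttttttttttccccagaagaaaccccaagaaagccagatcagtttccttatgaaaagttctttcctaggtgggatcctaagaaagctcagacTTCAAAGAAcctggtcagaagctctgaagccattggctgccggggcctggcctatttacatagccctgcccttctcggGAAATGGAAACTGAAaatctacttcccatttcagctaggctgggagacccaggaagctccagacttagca

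In Ifit3, ISRE matches begin 155, 121 and 102 bases before the gene start, and in Isg15 78, 72 and 66 bases before it. GAS occurs in Oas1a alone of these 3, beginning 98 bases before the start.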

How the data were processed

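The authors selected poly(A) RNA, filtered the reads with fastp, mapped them with STAR (2.5.2b in the submitters' processing notes) to mm10 (GRCm38) and deposited unnormalized counts of reads per gene symbol. Whether counting used the strand is not given in the sources used here. The 4 summary lines entered neither library sizes nor tests. Of all reads, between 3.84% and 48.4% per sample were unmapped, between 2.71% and 6.65% mapped to several places, between 3.17% and 6.14% lay outside genes and between 3.55% and 5.74% lay on overlapping genes.

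These counts entered edgeR 4.0.16 in R 4.3.3, with filterByExpr (minimum count 10, minimum total 15), TMM and the quasi-likelihood test. P-values were adjusted by Benjamini-Hochberg across all 15257 genes that passed the filter. Standard errors are the log2 fold change divided by the square root of F. Coordinates follow GENCODE M21 (GRCm38). CPM follow TMM normalization, and log2 CPM used a prior count of 2. Levels between genes were compared per kilobase of merged exons. Closely related copies, such as Oas1a and Oas1g, Ifit3 and Ifit3b, and the Gbp genes, lose shared reads to multimapping, and of the 40 genes, 10 overlap another gene on the same strand and 9 on the other, so these counts are uncertain. Alternatives were DESeq2 1.42.0, limma-voom (limma 3.58.1), other scalings and filters, the replicate number as a block and the removal of each sample, and, chosen after seeing the data, the contrast over tested genes only. The tests were tried on simulated counts. Figures were drawn with matplotlib 3.10.9.

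The genes, their roles and all lists (interferon ligands, receptors, kinases, nucleic acid sensing, other type I induced and other gamma induced genes, and cell markers) were chosen with earlier results of these data known. Values in every sample are given, within each role, for the gene with the highest level per length, the smallest p or the largest log2 fold change, and for any gene higher in 3%-Axitinib. Of the other lists, defining or most abundant genes, genes that met the criterion and genes at 0 are named. Some genes of these lists are not reported here.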

Additional observations from a re-analysis of the deposited data

How the results depend on the processing

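The number of interferon-stimulated genes lower by the criterion was 22, and stayed between 15 and 24 under all alternatives, the lowest without 3%-Axitinib replicate 2. In that fit, 1479 of all 15940 tested genes were lower. With scaling to total counts, which gave 24, 2437 of all 15257 tested genes were. The number with an adjusted p of at most 0.05 was 0 with edgeR, 16 with DESeq2's Wald test and 2 without a filter (Gbp4 and Iigp1), and ranged from 0 to 7 when a sample was left out, with 7 without 0%-Axitinib replicate 3 and 1 (Oas1a) without 3%-Axitinib replicate 2. The number higher by the criterion was 0, and 1 (Oas1a) without a filter, and from 0 to 1 with each sample left out. Oas1a enters where the filter needs reads in fewer samples, and it has reads in 3%-Axitinib samples alone, so its calls are a description only. The number whose groups do not overlap in either direction was 23 (60.5%, against 31.3% of all tested genes) and lay between 22 and 29. With a sample left out, the share of all tested genes lay between 35.7% and 53.7%, the highest without 0%-Axitinib replicate 3, where that of the interferon-stimulated genes was 61.5%, Socs1 among them as higher.

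With each sample left out, the median log2 fold change lay between -0.90 and -0.57 over the tested interferon-stimulated genes, between -0.77 and -0.18 for type I induced and between -1.94 and -1.15 for gamma induced genes, the last being nearest to 0 without 0%-Axitinib replicate 3. The gamma induced minus type I induced difference lay between -1.78 and -1.02, was -0.94 with larger sets and -0.76 with at least 10 counts in every sample, which leaves out Oas1a and Gbp8. Scaling to total counts moved the median of all tested genes to -0.16 and that of the tested interferon-stimulated genes to -0.86, with no change of sign. Of 493 single-gene values, 34 lost and 3 gained the criterion.

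With the replicate number as a block, 17 were lower by the criterion, against 8.87% of all tested genes. Eif2ak2, Gbp3, Gbp7, Rtp4 and Trim21 then missed it, with log2 fold changes between -1.08 and -0.63, against -1.17 to -0.63 without the block. Deviations of same-numbered samples correlated at 0.18, -0.12 and -0.17 for replicates 1, 2 and 3, so the numbers were not taken to pair the samples.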
